A study of Mus musculus with 12 samples.

Results

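Expression of 10 genes that encode stem and progenitor cell factors was examined in pre-selection CD4+CD8+ thymocytes, in which these genes are normally shut off. The genes were listed by name, as stem, progenitor and alternative-lineage genes whose expression ends when Bcl11b rises. All 10, namely Spi1, Lmo2, Lyl1, Bcl11a, Gfi1b, Hhex, Mef2c, Erg, Tal1 and Kit, were among the 23234 features listed. Spi1 stood under its older symbol Sfpi1.

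T cells arise from multipotent progenitors that enter the thymus with a set of transcription factors of stem and early lymphoid or myeloid cells, and with the receptor Kit. During the double negative stages these factors are lost one after another while Bcl11b, a zinc finger repressor and activator, is turned on and the cells commit to the T lineage. PU.1 (encoded by Spi1) drives myeloid and B cell genes, Lyl1 and Tal1 are basic helix-loop-helix proteins that act in complexes with the LIM-only protein Lmo2, Ldb1 and E proteins, and several of these genes act as oncogenes when they stay on in T cell precursors.

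RNA-seq was from CD24hiTCRβlo pre-selection CD4+CD8+ thymocytes of C57BL/6 mice. The wild-type group held 5 libraries of newborn mice (WT1 to WT5), the Bcl11bm/m group 3 libraries of newborn mice (HM1 to HM3), and the Bcl11bfl/fl:Cd4-Cre group 4 libraries (cKO1 to cKO4) of mice whose age the labels leave out. The Bcl11bm allele carries a frameshift, its product lacks the last zinc finger, and homozygotes die as neonates, so that all cells of these mice carried it from before T commitment. In Bcl11bfl/fl:Cd4-Cre mice the Cd4 promoter drives Cre, and the gene is deleted only when cells have reached the CD4+CD8+ stage. Genotypes were taken from the sample titles and the overall design, because the free descriptions name Bcl11bm/m for the wild-type and Bcl11b+/+ for the cKO libraries. No label says which libraries share an animal, so p-values measure the spread between these libraries, which may be technical. Age cannot be told apart from genotype wherever the cKO libraries are compared.

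Depth was estimated from the steps in the low FPKM values (fragments per kilobase of transcript, scaled to the size of the library), since no read numbers were given. It was 4010000 to 6980000 fragments in wild-type, 2730000 to 4230000 in Bcl11bm/m and 10990000 to 46160000 in cKO libraries, so that low levels were seen best in the cKO libraries. Each library had 11069 to 11545 features above 0.5 FPKM, or 47.6 to 49.7% of all. Of the defining genes of the sorted cells, Cd4 was at 281 to 651 FPKM and Cd8a at 591 to 1054 FPKM in these libraries. Bcl11b itself was at 132 to 292 FPKM in wild-type, 430 to 482 FPKM in Bcl11bm/m and 115 to 140 FPKM in cKO libraries. These whole-gene values do not show the deleted part or the truncated product.

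As a group the 10 genes were low. Of the 120 values, 26 lay above 0.5 FPKM and 43 were listed at 0. In wild-type libraries 9 of 50 values lay above 0.5 FPKM, in Bcl11bm/m libraries 10 of 30, and in cKO libraries 7 of 40. The values above 0.5 FPKM came from 4 genes, Spi1, Lmo2, Lyl1 and Kit. The other 6, Bcl11a, Gfi1b, Hhex, Mef2c, Erg and Tal1, reached it in no library, and their highest value was 0.435 FPKM, for Hhex in cKO3. Spi1 and Lyl1 lay above 0.5 FPKM in 4 of 5 wild-type libraries each, so that these wild-type cells did not show all 10 genes silent by that level. A listed 0 can be a failed estimate in this table, as 37 features with a median above 20 FPKM had a library at 0.

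**Figure D1:**
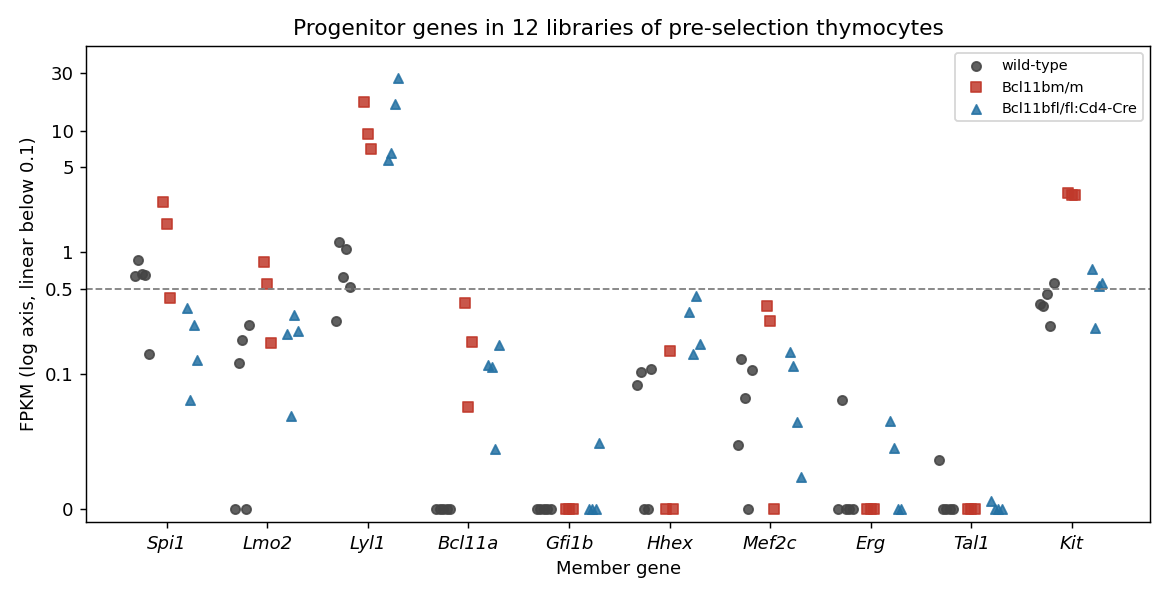
FPKM of the 10 progenitor genes (x axis) in each of the 12 libraries, on an axis that is logarithmic above 0.1 FPKM and linear below it; circles are wild-type (5), squares Bcl11bm/m (3) and triangles Bcl11bfl/fl:Cd4-Cre (4), and the dashed line is 0.5 FPKM. Lyl1 lies at 5.79 FPKM or more in all mutant libraries of both kinds, Kit near 3 FPKM only in Bcl11bm/m libraries, and Gfi1b, Erg and Tal1 at or near 0 in all groups.

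Only Lyl1 and Kit averaged 1 FPKM or more across all libraries, the level required to enter limma's moderated test across 10780 features. Both passed this level only through the groups in which they were high, since each averaged under 1 FPKM in wild-type, so that their calls are given below also from a fit of all 17153 features above 0 FPKM with no filter, and their number supports nothing. With no filter 7.28% of all features were higher and 4.05% lower in Bcl11bm/m than in wild-type thymocytes, and 2.57% and 4.72% in cKO thymocytes. Between the mutants 5.42% were higher and 1.64% lower in Bcl11bm/m. In Bcl11bm/m thymocytes both were higher than in wild-type. By the filtered test (adjusted p under 0.05) 9.92% of all features tested were higher than in wild-type, and 7.39% were lower. In cKO thymocytes Lyl1 was higher and Kit was not called, where 4.65% of all features were higher and 9.86% lower. Between the mutants Kit was higher in Bcl11bm/m thymocytes and Lyl1 was not called, against 7.63% of features higher and 2.6% lower. Of the features called in cKO against wild-type, 32% were higher, and 48% with median-ratio scaling, which moved the median difference of all features from -0.09 to 0.01. Between the mutants the share was 74.6%, and 56.7% with that scaling. In Bcl11bm/m against wild-type it was 57.3%, and 49.2% (1218 higher and 1257 lower) with quantile normalization. The differences of Lyl1 and Kit were many times this shift, except those of Kit between cKO and wild-type and of Lyl1 between the mutants. Both mutants were set against the same wild-type libraries, so the comparisons with wild-type are not independent.

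Separation of the libraries was also counted for all 10 genes, whatever their level. Lyl1, Bcl11a and Kit lay higher in all 3 Bcl11bm/m libraries than in any wild-type library, where 12.7% of the features above 0 FPKM in a library did so. Lyl1, Bcl11a and Hhex lay higher in all 4 cKO libraries than in any wild-type library, where 4.69% of features did. Spi1 and Kit lay higher in all Bcl11bm/m than in all cKO libraries, against 16.0% of features. None of the 10 genes was lower in all mutant libraries than in all wild-type libraries. The share of all features that were lower in this way was not counted, so nothing is read from it. The median difference over the 10 genes on the log2(FPKM + 1) scale was 0.22 for Bcl11bm/m against wild-type, 0.06 for cKO against wild-type and 0.06 for Bcl11bm/m against cKO, and the medians over the 10780 features tested were -0.02, -0.09 and 0.09. As 8 of the 10 lie under the filter, the medians with no filter are closer in kind, and these were 0, -0.01 and 0.03.

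The sequence before the start of Lyl1, Kit and Bcl11a is shown because these are the genes whose Bcl11bm/m and wild-type libraries did not overlap. Each is the 250 bases upstream of the RefSeq start on GRCm38.p6, read 5′ to 3′ on the gene's strand, which is plus for all 3. Capitals mark the letters CAGGTG (an E-box of the kind bound by helix-loop-helix proteins) and AGGAAG or CGGAAG (an ETS type core), on either strand.
Lyl1, chr8:84701207-84701456: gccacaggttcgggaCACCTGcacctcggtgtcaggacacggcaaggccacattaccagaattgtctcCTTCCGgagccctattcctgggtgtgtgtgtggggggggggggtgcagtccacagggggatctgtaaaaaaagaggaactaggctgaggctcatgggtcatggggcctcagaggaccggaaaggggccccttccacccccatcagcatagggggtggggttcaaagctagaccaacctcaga
Kit, chr5:75574737-75574986: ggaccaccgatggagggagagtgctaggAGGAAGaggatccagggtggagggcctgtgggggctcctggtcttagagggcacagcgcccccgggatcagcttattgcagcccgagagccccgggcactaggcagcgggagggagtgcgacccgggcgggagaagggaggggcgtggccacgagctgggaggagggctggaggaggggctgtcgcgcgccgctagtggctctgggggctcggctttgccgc
Bcl11a, chr11:24080445-24080694: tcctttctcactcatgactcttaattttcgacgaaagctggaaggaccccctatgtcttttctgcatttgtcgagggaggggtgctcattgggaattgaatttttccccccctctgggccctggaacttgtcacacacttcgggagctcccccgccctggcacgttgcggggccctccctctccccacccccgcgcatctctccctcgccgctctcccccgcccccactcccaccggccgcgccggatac

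Lyl1 had CAGGTG 235 bases and CGGAAG 182 bases before its start, Kit had AGGAAG 222 bases before it, and the Bcl11a window held none of the letters searched. Of 32851 RefSeq promoter windows of this length, 17.22% held CAGGTG, 13.59% CGGAAG and 29.48% AGGAAG, so these matches are common. Other genes of the 10 had them too. CAGGTG was 217 and AGGAAG 40 bases before a start of Erg. CGGAAG was 57 and AGGAAG 185 bases before starts of Mef2c, and AGGAAG was 97 bases before that of Hhex. The letters ACCACA and ACCGCA, which Runx proteins bind, were in 14.05% and 5.1% of all windows and in none of the 14 windows of the 8 genes that have an entry. CAGCTG, a further E-box in 13% of all windows, was in none of these either. Of the letters that GATA factors bind, TGATAA (7.94% of all windows) was found 120 bases before the start of Gfi1b. The other GATA type searched, AGATAA (9.99%), was found 205 bases before a start of Tal1 and 103 bases before a start of Erg. Spi1 and Lmo2 were not matched to a window. A match of letters is a description and not a binding site.

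Lyl1 encodes a basic helix-loop-helix factor of haematopoietic stem and early T progenitor cells. On NCBIM37 (mm9) it lies on the plus strand of chromosome 8 from 87225356 to 87228614. In WT1 to WT5 it was at 0.27, 1.21, 0.627, 1.07 and 0.514 FPKM. In HM1 to HM3 it was at 17.2, 9.4 and 7.09 FPKM, and in cKO1 to cKO4 at 5.79, 6.6, 16.8 and 27 FPKM. All 7 mutant libraries lay above all 5 wild-type libraries, and the mutants overlapped each other. It was above 0.5 FPKM in WT2, WT3, WT4 and WT5, in HM1, HM2 and HM3, and in cKO1, cKO2, cKO3 and cKO4.

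The mean of Lyl1 was 0.739 ± 0.393 FPKM (SD, n = 5) in wild-type, 11.2 ± 5.27 FPKM (n = 3) in Bcl11bm/m and 14 ± 9.98 FPKM (n = 4) in cKO thymocytes. The ratio of means to wild-type was 15.2 for Bcl11bm/m and 19 for cKO. On the log2(FPKM + 1) scale, which understates changes of genes this low in wild-type, Lyl1 rose by 2.76 ± 0.29 (SE, limma, adjusted p = 0.000517) in Bcl11bm/m and by 2.89 ± 0.4 (limma, adjusted p = 0.00394) in cKO thymocytes. With no filter the adjusted p was 0.00253 and 0.0131. The exact two-sided permutation p was 0.0357 and 0.0159, the smallest that 3 against 5 and 4 against 5 libraries can give. The difference between the mutants was -0.14 ± 0.54 (limma, adjusted p = 0.891), an error that leaves room for a sizeable difference either way. The wild-type values rest on an estimated 3.01 to 12 fragments per library, those of Bcl11bm/m on 48 to 74.9 and those of cKO on 116 to 580.

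The gene Nfix overlaps Lyl1 on the other strand, and the library chemistry is uncertain. Without strand, reads of both could not be separated. The same limit holds for Lmo2, which 4931422A03Rik overlaps on the other strand, and for Bcl11a, which Gm12064 and 4930538E20Rik overlap there. Nfix was at 0.422 to 1.46 FPKM in wild-type, 1.15 to 1.96 FPKM in Bcl11bm/m and 0.407 to 0.717 FPKM in cKO libraries, all below the mutant levels of Lyl1. Trmt1, the nearest gene beside it at 1649 bases, was at 13.2 to 21.7 FPKM in wild-type, 14.3 to 19.1 FPKM in Bcl11bm/m and 13.1 to 22.1 FPKM in cKO libraries, and the groups overlapped.

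**Figure D2:**
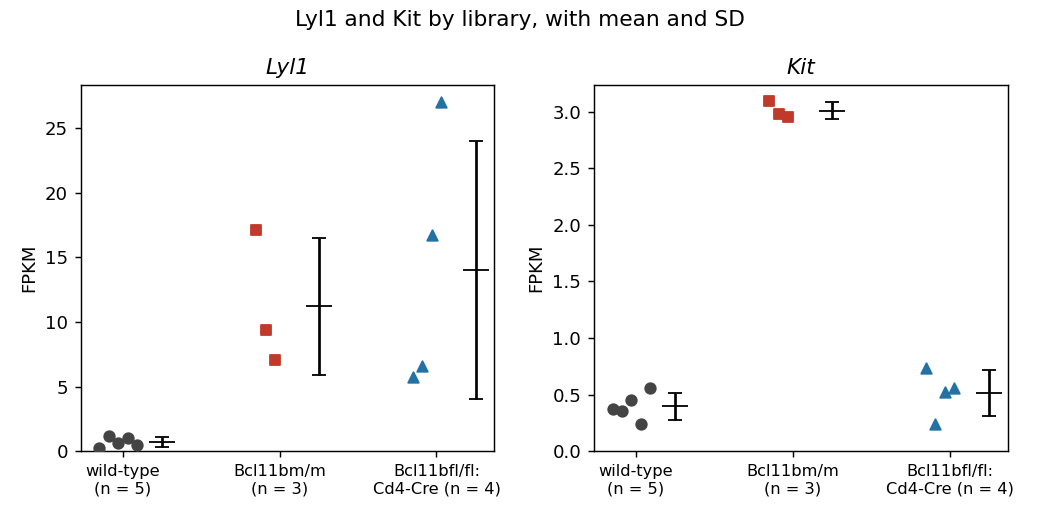
FPKM of Lyl1 (left) and Kit (right) in each library of wild-type (circles), Bcl11bm/m (squares) and Bcl11bfl/fl:Cd4-Cre (triangles) thymocytes, with the mean and SD of each group beside the points. Every mutant library lies above the wild-type libraries for Lyl1, and Kit is at 3.01 ± 0.0757 FPKM in Bcl11bm/m against 0.399 ± 0.118 FPKM in wild-type and 0.516 ± 0.206 FPKM in cKO thymocytes.

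Kit encodes the receptor tyrosine kinase for stem cell factor, which marks early thymic progenitors and the first double negative stages. It lies on the plus strand of chromosome 5 from 75970941 to 76052747 (NCBIM37). It was at 0.376, 0.358, 0.454, 0.246 and 0.563 FPKM in WT1 to WT5, at 3.09, 2.98 and 2.95 FPKM in HM1 to HM3, and at 0.735, 0.238, 0.527 and 0.563 FPKM in cKO1 to cKO4. The 3 Bcl11bm/m libraries were close together and lay above all 9 others, and the wild-type and cKO libraries overlapped. Kit was above 0.5 FPKM in WT5, in HM1, HM2 and HM3, and in cKO1, cKO3 and cKO4.

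The ratio of the Bcl11bm/m mean of Kit to wild-type was 7.53, and to cKO 5.83. On the log2(FPKM + 1) scale Kit was higher in Bcl11bm/m than in wild-type thymocytes by 1.52 ± 0.1 (SE, limma, adjusted p = 3.7e-05, exact permutation p = 0.0357), and higher than in cKO thymocytes by 1.41 ± 0.14 (limma, adjusted p = 0.00281). With no filter the adjusted p was 0.000103 and 0.00551. For the difference from cKO the exact permutation p was 0.0571, the smallest that 3 against 4 libraries can give. Between cKO and wild-type Kit differed by 0.11 ± 0.15 (limma, adjusted p = 0.671), and this small difference became -0.23 with quantile normalization. The Bcl11bm/m values rest on an estimated 42.6 to 62.9 fragments per library, and those of wild-type on 5.08 to 17.3.

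The ligand of Kit and its signalling partners were followed as a list of 18 genes, of which 16 were tested. In Bcl11bm/m thymocytes 6 were higher than in wild-type, where 9.92% of all features were, and none was lower, with a median difference of 0.23 over the list. With median-ratio scaling 7 were higher and 2 lower. Of the 6, Gab2 and Fes averaged under 1 FPKM in wild-type and entered the test only through the Bcl11bm/m libraries. With no filter, all 18 were tested, 4 were higher and none lower, where 7.28% of all features were higher, and the median was 0.12. The 6 included the tyrosine kinases Fes and Lyn and the adaptor Gab2. Fes was at 0.189 to 0.281 FPKM in wild-type and 11.5 to 14.7 FPKM in Bcl11bm/m libraries (difference 3.55, limma, adjusted p = 8.55e-07). Lyn was at 0.253 to 2.36 FPKM and 14.2 to 19.9 FPKM (difference 3.09, adjusted p = 0.00102), and Gab2 at 0.126 to 0.388 FPKM and 5.04 to 5.71 FPKM (difference 2.41, adjusted p = 3.88e-06). With no filter the adjusted p was 9.91e-06 for Fes, 0.00451 for Lyn and 2.16e-05 for Gab2. Sh2b3, an adaptor that restrains cytokine receptor signalling, was higher by 0.88 (adjusted p = 0.0112).

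In cKO thymocytes 1 of the 16, Sh2b3, near the share of 4.65% of all features, was higher than in wild-type (difference 0.7, limma, adjusted p = 0.0362, and 0.0647 with no filter), and the list's median difference was 0.22. Between the mutants Fes, Gab2 and Lyn were higher in Bcl11bm/m thymocytes, by 3.03, 2.09 and 1.98 (limma, adjusted p = 0.00133, 0.00147 and 0.0121). Fes and Gab2 averaged under 1 FPKM in cKO thymocytes too, and with no filter the adjusted p was 0.00524 for Fes, 0.00504 for Gab2 and 0.0247 for Lyn. Cbl, a ubiquitin ligase that ends receptor signalling, was lower there (difference -0.44, adjusted p = 0.0496, 0.0543 with no filter and 0.0725 with quantile normalization). These 3 higher and 1 lower of 16 stand beside 7.63% and 2.6% of all features. With no filter 3 of 18 were higher and none lower, beside 5.42% and 1.64%. The ligand itself, Kitl, was listed at 0 in 11 libraries and at 0.0041 FPKM in cKO1.

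Genes of the double negative stages, at which Kit is normally on, were measured beside it. Of 9 tested, 6 were higher in Bcl11bm/m than in wild-type thymocytes, where 9.92% of all features were, and none was lower (1 with quantile normalization), with a median difference of 2.69. Il7r and Hes1 averaged under 1 FPKM in wild-type and passed the filter through the mutants. With no filter, 10 were tested, and 6 were higher in Bcl11bm/m and 4 in cKO thymocytes, against shares of 7.28% and 2.57%. The 6 in Bcl11bm/m were not the same genes, since Id1 (difference 1.65, limma, adjusted p = 0.0247) was not called with no filter (adjusted p = 0.0555). Il7r, the interleukin 7 receptor, was at 0 to 0.0885 FPKM in wild-type and at 12.2 to 25.8 FPKM in Bcl11bm/m libraries (difference 4.04, limma, adjusted p = 1.52e-05). Il2ra (CD25) rose by 3.55 (adjusted p = 0.000727), and the Notch targets Hes1 and Dtx1 by 3.44 and 3.25 (adjusted p = 0.000781 and 0.00141). The 3 not called were Notch3, with a difference of -0.68 (adjusted p = 0.0672), Sox13 with 0.06 and Nrarp with 0.05. In cKO thymocytes 4 of the 9 rose, where 4.65% of all features did, Dtx1, Hes1, Il7r and Cd44, by 2.83, 2.4, 2.01 and 1.48 (adjusted p = 0.0186, 0.0187, 0.00857 and 0.0178). The summed level of the 10 listed genes was 15.4 to 23.7 FPKM in wild-type, 102 to 255 FPKM in Bcl11bm/m and 37.7 to 125 FPKM in cKO libraries. In bulk RNA a few cells with high levels and low levels in all cells cannot be told apart, so the part of less mature cells in the level of Kit or Lyl1 was not tested.

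Kit is also high on mast cells, and their genes were measured beside it. Fcer1a, Ms4a2, Tpsb2, Cma1 and Mcpt4, 5 of the 8 on the list, were listed at 0 in all 12 libraries. Cpa3, a protease of mast cells and early progenitors, was listed at 0 in all wild-type libraries, at 0.194 to 0.567 FPKM in Bcl11bm/m and at 0.0728 to 2.15 FPKM in cKO libraries. Hdc, the histidine decarboxylase of mast cells and basophils, was at 0.84, 1.11 and 1.85 FPKM in HM1 to HM3, above all wild-type (0 to 0.461 FPKM) and cKO (0.169 to 0.418 FPKM) libraries, as Kit was. Of the list, 1 gene, Srgn, was tested with the filter, and it was not called. With median-ratio scaling and with quantile normalization it was higher in Bcl11bm/m than in wild-type thymocytes. With no filter 3 were tested. Of these, 2 were higher in Bcl11bm/m than in wild-type thymocytes, beside 7.28% of all features. Against cKO thymocytes 1 was higher, beside 5.42%. The part of mast cells in the level of Kit was not tested.

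**Figure D3:**
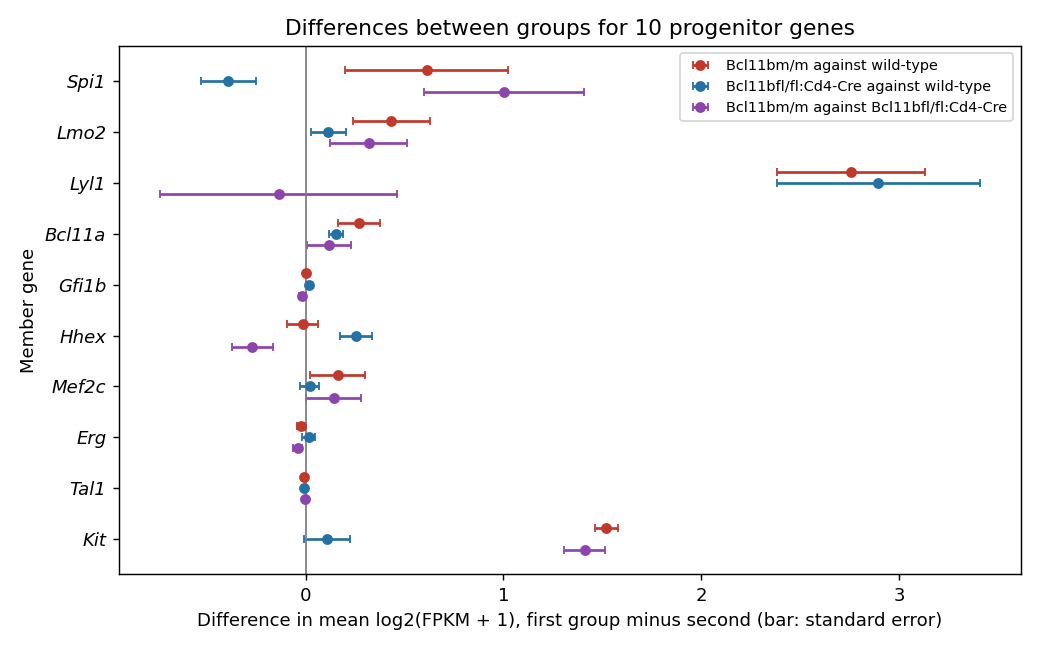
Difference in mean log2(FPKM + 1) (x axis, first group minus second) for each of the 10 genes in the 3 comparisons, with bars of 1 standard error from the spread between libraries. Lyl1 stands out in both comparisons with wild-type and Kit in both comparisons of Bcl11bm/m thymocytes, while Gfi1b, Erg and Tal1 lie at 0 to within 0.04.

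Spi1 encodes PU.1, the Ets family factor that directs myeloid and B cell fates and is lost before T commitment. It lies on the plus strand of chromosome 2 from 90922547 to 90955913 (NCBIM37). It was at 0.636, 0.858, 0.665, 0.648 and 0.145 FPKM in WT1 to WT5, at 2.59, 1.72 and 0.418 FPKM in HM1 to HM3, and at 0.346, 0.0805, 0.252 and 0.13 FPKM in cKO1 to cKO4. Bcl11bm/m replicates 1 and 2 lay above all other libraries, whereas replicate 3 lay within the wild-type range. Spi1 was above 0.5 FPKM in WT1, WT2, WT3 and WT4, in HM1 and HM2, and in no cKO library.

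Its difference from wild-type was 0.61 ± 0.41 (SE from the spread between libraries) on the log2(FPKM + 1) scale in Bcl11bm/m thymocytes, with an exact permutation p of 0.179. It was 0.32 without HM1 and 0.99 without HM3. In cKO thymocytes Spi1 was at 0.202 ± 0.12 FPKM (SD, n = 4) against 0.591 ± 0.265 FPKM (n = 5) in wild-type, a difference of -0.39 ± 0.14 with an exact permutation p of 0.0476. In the limma fit across 17153 features without a filter the adjusted p of that difference was 0.125, and leaving out any cKO library, or any of wild-type replicates 1 to 4, raised the exact p to between 0.0714 and 0.107. Bcl11bm/m exceeded cKO thymocytes by 1 ± 0.4 (exact permutation p = 0.0571, the smallest possible).

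Myeloid genes were measured beside Spi1. Of the 21 listed, 17 were above 0 FPKM in a Bcl11bm/m library, where 9 were highest in HM1 and lowest in HM3, as Spi1 was. The same order was found in 20.7% of all 14921 features above 0 FPKM there. The other 12 of the list had another order or equal values, among them Csf2ra, Csf3r, Itgam, Cd68 and Cebpb. Lyz2, the lysozyme of macrophages, was at 37.7, 10.9 and 5.53 FPKM in HM1 to HM3, at 2.19 to 7.04 FPKM in wild-type and at 0.107 to 1.46 FPKM in cKO libraries. Csf1r, the macrophage growth factor receptor, was at 1.49, 1.05 and 0.579 FPKM in HM1 to HM3, at 0.136 to 0.44 FPKM in wild-type and at 0 to 0.118 FPKM in cKO libraries. Both are among the 9, and both were lower in all cKO than in all wild-type libraries. The share of all features lower in this way was not counted, so nothing is read from that. The sum of the 21 myeloid genes was 17 to 24.8 FPKM in wild-type, 39.5 to 132 FPKM in Bcl11bm/m and 12.5 to 64.9 FPKM in cKO libraries. Elane was listed at 0 throughout, Mpo and S100a8 were at 0 in all Bcl11bm/m libraries, and the part of myeloid cells in the level of Spi1 was not tested.

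Of the 11 myeloid genes tested, 4 were higher in Bcl11bm/m than in wild-type thymocytes, where 9.92% of all features were, and none was lower, with a median difference of 0.74. Of these 4, Fcgr3 and Mpeg1 averaged under 1 FPKM in wild-type. With no filter, 20 were tested, 4 higher and none lower, against 7.28% of all features higher, and the median was 0.35. Fcer1g and Tyrobp, signalling adaptors shared by myeloid and NK cells, rose by 2.86 and 2.71 (limma, adjusted p = 0.0057 and 0.0011), Mpeg1 by 1.08 (adjusted p = 0.0226) and Fcgr3 by 1.08 (adjusted p = 0.0267, 0.0529 with quantile normalization and 0.0567 with no filter). In cKO thymocytes none of the 11 was higher and 2 were lower, where 9.86% of all features were, Lyz2 with a difference of -2.05 (adjusted p = 0.00538) and Mpeg1 with -0.62 (adjusted p = 0.0404), with a median difference of -0.16. Others differed in the other direction without a call, Fcer1g by 2.15 (8.43, 10.4 and 42.2 FPKM in cKO4, cKO1 and cKO3 and 1.2 FPKM in cKO2, adjusted p = 0.0621), Fcgr3 by 0.81 (adjusted p = 0.279) and Cebpb by 0.46 (adjusted p = 0.297). The part of myeloid cells in the level of Lyl1, which early myeloid cells also express, was not tested.

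**Figure D4:**
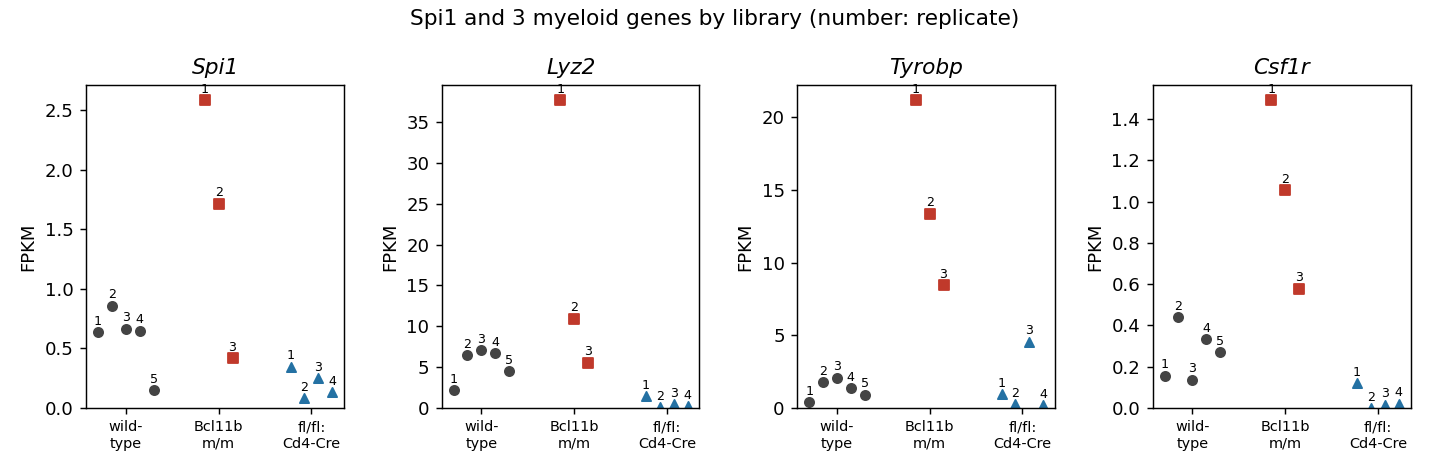
FPKM of Spi1 and of the myeloid genes Lyz2, Tyrobp and Csf1r in each library (circles wild-type, squares Bcl11bm/m, triangles Bcl11bfl/fl:Cd4-Cre), with the replicate number beside each point. Among the Bcl11bm/m libraries all 4 genes are highest in replicate 1 (2.59 FPKM for Spi1) and lowest in replicate 3 (0.418 FPKM). The myeloid genes shown are among the 9 of 21 listed that have this order. The other 12 have another order or equal values.

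Lmo2, the LIM-only bridge of the Tal1 and Lyl1 complex, lies on the plus strand of chromosome 2 from 103798143 to 103822035 (NCBIM37). It was at 0, 0.123, 0.19, 0 and 0.25 FPKM in WT1 to WT5, at 0.833, 0.552 and 0.179 FPKM in HM1 to HM3, and at 0.214, 0.069, 0.302 and 0.224 FPKM in cKO1 to cKO4. Only HM1 and HM2 were above 0.5 FPKM, and HM3 lay within the wild-type range. The difference from wild-type was 0.43 ± 0.2 in Bcl11bm/m (exact permutation p = 0.107, with 0.29 without HM1) and 0.11 ± 0.09 in cKO thymocytes (exact permutation p = 0.254), and Bcl11bm/m exceeded cKO by 0.32 ± 0.19 (exact permutation p = 0.229). At these levels the Bcl11bm/m values rest on an estimated 1.14 to 3.42 fragments per library, and HM1 and HM2 lay above all wild-type libraries.

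The partners of Lyl1, Tal1 and Lmo2 were followed as a list of 14 genes, 10 of them tested. Ldb1, which bridges these complexes, was at 142 to 184 FPKM in wild-type, 133 to 134 FPKM in Bcl11bm/m and 151 to 163 FPKM in cKO libraries, and passed the test in no comparison. Lmo4, another LIM-only protein, was at 34.6 to 55.5 FPKM in wild-type, 190 to 383 FPKM in Bcl11bm/m and 189 to 461 FPKM in cKO libraries. It rose by 2.59 (limma, adjusted p = 0.000253) and 2.58 (adjusted p = 0.0013). All mutant libraries lay above all wild-type libraries, as for Lyl1, and the mutants differed by 0.02 (adjusted p = 0.979).

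In Bcl11bm/m thymocytes Tcf12, the E protein HEB, and Ssbp3, a stabiliser of Ldb proteins, were the other partners that rose, by 0.85 and 0.72 (limma, adjusted p = 0.0259 and 0.0119). The 3 of 10 stand beside 9.92% of all features. No partner was lower there (1 with median-ratio scaling, with 4 higher), and the list's median difference was 0.18. In cKO thymocytes Lmo4 rose and Tcf3, which encodes the E2A proteins, fell, with a difference of -0.48 (adjusted p = 0.0309) and a list median of -0.03. This 1 higher and 1 lower of 10 stand beside 4.65% and 9.86% of all features. With median-ratio scaling and with quantile normalization 2 were higher and 1 lower. Ldb2 and Lmo1 were listed at 0 in all libraries, Gata2 in 11 of 12, and Gata1 was at 0.304 FPKM or less.

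Bcl11a, the paralogue of Bcl11b that B cells and progenitors express, lies on the plus strand of chromosome 11 from 23978056 to 24074123 (NCBIM37). It was listed at 0 in all 5 wild-type libraries, at 0.383, 0.0752 and 0.184 FPKM in HM1 to HM3, and at 0.118, 0.114, 0.0444 and 0.173 FPKM in cKO1 to cKO4. No library was above 0.5 FPKM, and all 7 mutant libraries lay above wild-type. The difference was 0.27 ± 0.11 in Bcl11bm/m (exact permutation p = 0.0357) and 0.15 ± 0.03 in cKO thymocytes (exact permutation p = 0.0159), in both cases the smallest p possible. Without the filter, limma's adjusted p was 0.0566 and 0.0213. Bcl11bm/m and cKO thymocytes differed by 0.12 ± 0.11 (exact permutation p = 0.343).

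The wild-type level at which 3 fragments would be counted was estimated at 0.0742 to 0.129 FPKM for Bcl11a, which is the upper limit that each listed 0 allows. HM2 and cKO3 lay within or below that limit, and cKO1, cKO2 within it, so at this depth only HM1, HM3 and cKO4 exceeded what every wild-type library could have held undetected. The deeper cKO libraries gave an estimated 4.54 to 31.6 fragments each. No fold is given, since wild-type is listed at 0.

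B cell genes were measured beside Bcl11a. Cd79a, a subunit of the B cell receptor, was at 0.217 to 0.446 FPKM in wild-type, at 10.7, 1.08 and 0.21 FPKM in HM1 to HM3 and at 3.92, 1.78, 0.911 and 1.38 FPKM in cKO1 to cKO4. It was higher than in wild-type in cKO thymocytes (difference 1.02, limma, adjusted p = 0.0237, and 0.0419 with no filter), and passed the filter only through the mutant libraries. Of the 5 B cell genes tested it was the only one called in cKO thymocytes, and none was called in Bcl11bm/m thymocytes (1 lower with quantile normalization). Of all features, 4.65% were higher and 9.86% lower in cKO, and 9.92% and 7.39% in Bcl11bm/m thymocytes. With no filter 12 were tested, 2 were higher in cKO and none in Bcl11bm/m thymocytes, against 2.57% and 7.28% of all features. Cd79b and Vpreb1 had differences of -0.68 and -0.52 in Bcl11bm/m and of -0.14 and -0.37 in cKO thymocytes. Vpreb3 and Cd22 differed the other way, by 0.81 and 0.59 in Bcl11bm/m (limma, adjusted p = 0.0652 and 0.0664). In cKO thymocytes these 2 differed by 0.56 and 0.2, and the list's medians were 0.59 in Bcl11bm/m and 0.2 in cKO thymocytes. HM1, the highest of the Bcl11bm/m libraries for Bcl11a, was also the highest for Cd79a and Ms4a1 (1.97 FPKM), and HM3, the second for Bcl11a, was lowest for Cd79a, with Pax5 and Ms4a1 at 0. The sum of the 12 B cell genes was 17.4 to 25 FPKM in wild-type, 13 to 42 FPKM in Bcl11bm/m and 16.2 to 32.5 FPKM in cKO libraries. The part of B cells in the level of Bcl11a was not tested.

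Hhex, a homeobox factor of stem cells and B cell progenitors, lies on the plus strand of chromosome 19 from 37507377 to 37515218 (NCBIM37). It was at 0.0916, 0.103, 0, 0 and 0.11 FPKM in WT1 to WT5, at 0, 0.154 and 0 FPKM in HM1 to HM3, and at 0.323, 0.145, 0.435 and 0.176 FPKM in cKO1 to cKO4. No library was above 0.5 FPKM. All cKO libraries lay above all wild-type libraries, by 0.25 ± 0.08 on the log2(FPKM + 1) scale (exact permutation p = 0.0159, the smallest possible). Without the filter, limma's adjusted p was 0.0669. WT3 and WT4, listed at 0, allow up to 0.212 and 0.208 FPKM, and cKO2 and cKO4 lay below both limits. For Bcl11bm/m against wild-type the difference was -0.01 ± 0.08 (exact permutation p = 1), and against cKO -0.27 ± 0.1 (exact permutation p = 0.114).

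Mef2c, a MADS-box factor of lymphoid and myeloid progenitors, lies on the plus strand of chromosome 13 from 83643033 to 83806684 (NCBIM37). It was at 0.0469, 0.132, 0.0818, 0 and 0.107 FPKM in WT1 to WT5, at 0.358, 0.272 and 0 FPKM in HM1 to HM3, and at 0.15, 0.117, 0.0639 and 0.0236 FPKM in cKO1 to cKO4. No library was above 0.5 FPKM. HM1 and HM2 were the highest libraries and HM3 was listed at 0. Spi1, Lmo2, Lyl1 and Kit also fell from HM1 to HM2 to HM3, as did 20.7% of the 14921 features above 0 FPKM there. The difference was 0.16 ± 0.14 in Bcl11bm/m (exact permutation p = 0.214, with 0.07 without HM1 and 0.29 without HM3) and 0.02 ± 0.05 in cKO thymocytes (exact permutation p = 0.698), and Bcl11bm/m against cKO gave 0.14 ± 0.14 (exact permutation p = 0.343).

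Gfi1b, Erg and Tal1 were at or near 0 in all groups. Gfi1b, a repressor of stem, erythroid and megakaryocytic cells, lies on the minus strand of chromosome 2 from 28464970 to 28477502 and was listed at 0 in 11 libraries and at 0.0484 FPKM in cKO4. Erg, an Ets factor of stem and endothelial cells, lies on the minus strand of chromosome 16 from 95580776 to 95808200. It was at 0.0804 FPKM in WT2, 0.0648 FPKM in cKO1 and 0.0452 FPKM in cKO2, and listed at 0 in the other libraries. Tal1, the founding helix-loop-helix oncogene of T cell leukaemia, lies on the plus strand of chromosome 4 from 114729031 to 114744360 (all NCBIM37). It was at 0.0363 FPKM in WT1 and 0.0055 FPKM in cKO1, and listed at 0 in the other 10 libraries.

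None of these 3 genes was above 0.5 FPKM in any library, and none was above 0 in a Bcl11bm/m library. Their differences from wild-type on the log2(FPKM + 1) scale were 0, -0.02 and -0.01 in Bcl11bm/m (exact permutation p = 1 for each) and 0.02, 0.02 and -0.01 in cKO thymocytes (exact permutation p = 0.889, 0.81 and 1). Between Bcl11bm/m and cKO they were -0.02, -0.04 and -0.002 (exact permutation p = 1, 0.571 and 1). For Gfi1b a listed 0 allows up to 0.437 to 0.678 FPKM in the shallow Bcl11bm/m libraries, but 0.0401 to 0.168 FPKM in the cKO libraries. For Tal1 the cKO limits were 0.0162 to 0.068 FPKM and for Erg 0.0207 to 0.0868 FPKM. In Bcl11bm/m libraries the limits were 0.177 to 0.274 FPKM for Tal1 and 0.2255 to 0.349 FPKM for Erg. Those of wild-type libraries were 0.265 to 0.461 FPKM for Gfi1b, 0.107 to 0.186 FPKM for Tal1 and 0.137 to 0.238 FPKM for Erg.

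The related repressor Gfi1 was at 38.2 to 57 FPKM in wild-type, 32.1 to 49.6 FPKM in Bcl11bm/m and 33.4 to 40 FPKM in cKO libraries and was not called. It stood in a list of 12 genes for the corepressor complexes of GFI1B and BCL11A, which were all tested. In Bcl11bm/m thymocytes none was higher (1 with quantile normalization) and 1 was lower (2 with median-ratio scaling and with quantile normalization), beside 9.92% and 7.39% of all features. The 1 was Rbbp7, a histone-binding subunit (difference -0.6, limma, adjusted p = 0.0381). In cKO thymocytes Rbbp7 and the deacetylase Hdac2 were lower, with differences of -0.8 and -0.52 (adjusted p = 0.019 and 0.045). These 2 of 12 (3 with quantile normalization) stand beside 9.86% of all features lower in cKO thymocytes. With no filter the call of Rbbp7 in Bcl11bm/m (adjusted p = 0.0596) and that of Hdac2 in cKO thymocytes (0.0652) were lost. The list's medians were -0.25 and -0.29.

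A list of 20 other progenitor genes was set beside the 10. Hoxa10 and Mecom were listed at 0 in all 12 libraries, and Hoxa9, Gata2 and Cd34 were at 0.0105 FPKM or less. In all 11 of the 20 stayed under 1 FPKM throughout the libraries. Of the 8 tested, 2 were higher in Bcl11bm/m thymocytes, where 9.92% of all features were, with a list median of 0.17. With no filter, 18 were tested, 3 were higher and 1 lower, beside 7.28% and 4.05% of all features, and the median was 0. Mycn, under the filter, was at 0.66 to 2.35 FPKM in wild-type, 0 to 0.296 FPKM in Bcl11bm/m and 0.417 to 0.95 FPKM in cKO libraries. Flt3, the cytokine receptor of multipotent progenitors, was at 0 to 0.218 FPKM in wild-type, 2.86 to 5.81 FPKM in Bcl11bm/m and 0.132 to 0.872 FPKM in cKO libraries. It was higher in Bcl11bm/m than in wild-type by 2.26 (limma, adjusted p = 0.000126) and than in cKO thymocytes by 1.98 (adjusted p = 0.00706), and was not called between cKO and wild-type (difference 0.28, adjusted p = 0.339). It passed the filter only through the Bcl11bm/m libraries, and with no filter the adjusted p was 0.000771 and 0.0149.

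Cd44, an adhesion receptor of progenitors and activated cells, rose in Bcl11bm/m by 2.69 (limma, adjusted p = 0.000388) and in cKO thymocytes by 1.48 (adjusted p = 0.0178). In cKO thymocytes Hoxa7 and Sox4 fell, with differences of -1.02 and -0.92 (adjusted p = 0.029 and 0.00535, and 0.0569 and 0.0126 with no filter, where Hoxa7 was no longer called), and the list's median was -0.3. This 1 higher and 2 lower of 8 stand beside 4.65% and 9.86% of all features. With no filter 1 of 18 was higher and 1 lower, beside 2.57% and 4.72%. Between the mutants Flt3, Sox4 and Bmi1 were higher in Bcl11bm/m, the latter by 0.67 (adjusted p = 0.0313). These 3 of 8 stand beside 7.63% of all features, and with no filter 3 of 18 beside 5.42%.

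**Figure D5:**
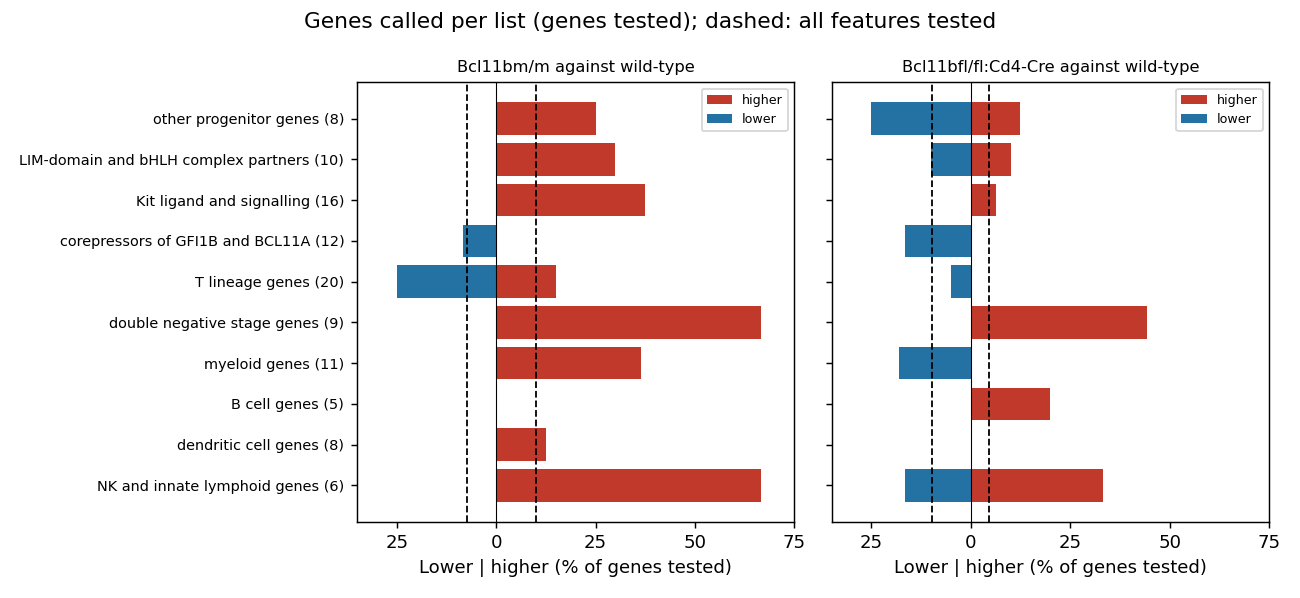
Share of the genes tested in each list (number tested in parentheses) that were higher (right, red) or lower (left, blue) than in wild-type thymocytes by limma's adjusted p under 0.05, for Bcl11bm/m (left panel) and Bcl11bfl/fl:Cd4-Cre (right panel) thymocytes, for lists with at least 5 genes tested. The dashed lines are the shares over all 10780 features, 9.92% higher and 7.39% lower in Bcl11bm/m, 4.65% and 9.86% in cKO thymocytes.

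Of the 20 T lineage genes, all tested, 3 were higher and 5 lower in Bcl11bm/m than in wild-type thymocytes, beside 9.92% and 7.39% of all features, with a median of -0.36. The 3 were Bcl11b itself, Notch1 and Tcf12. The counts were 6 higher and 8 lower with median-ratio scaling and with quantile normalization, and 1 and 4 with no filter, where Bcl11b (adjusted p = 0.0551), Notch1 (0.0731) and Cd8b1 (0.0659) were no longer called. The pre-T cell receptor gene Ptcra fell most, by 2.22 on the log2 scale (limma, adjusted p = 0.000758). Cd4, Cd8b1 and Rag2 were lower, with differences of -0.99, -0.96 and -0.87 (adjusted p = 0.00215, 0.025 and 0.00997). In cKO thymocytes none was higher and 1 was lower, beside 4.65% and 9.86% of all features. The 1 was Themis (difference -0.47, limma, adjusted p = 0.0345), a call lost with median-ratio scaling (adjusted p = 0.136) and quantile normalization (0.227). With those scalings 1 was higher in cKO thymocytes, and none and 3 were lower.

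Genes of other lineages were read in the same way. Of 6 NK and innate lymphoid genes tested, 4 were higher in Bcl11bm/m thymocytes and 2 in cKO thymocytes, beside 9.92% and 4.65% of all features, and Prf1 was lower in the latter. Of the 4, Klrb1c and Il18r1 averaged under 1 FPKM in wild-type. With no filter, 14 were tested, 2 were higher in each mutant and 1 was lower in cKO thymocytes, against shares of all features of 7.28% and 2.57% higher and 4.72% lower. Id2, which opposes E proteins, was at 3.05 to 5.25 FPKM in wild-type, 26.1 to 37.3 FPKM in Bcl11bm/m and 14.3 to 99 FPKM in cKO libraries, with differences of 2.73 (limma, adjusted p = 6.61e-05) and 2.96 (adjusted p = 0.00442). In Bcl11bm/m and cKO libraries the sum of the 14 listed genes was 42.9 to 55.1 FPKM and 23.3 to 152 FPKM, against 7.51 to 11.1 FPKM in wild-type, while Ncr1 and Gzmb were at 0.192 FPKM or less in all. Klrb1c reached 21.8 FPKM, Il2rb 7.37 FPKM, Klrd1 5.5 FPKM and Nkg7 2.6 FPKM in a cKO library, against at most 0.605 FPKM in wild-type. Their part in the level of Lyl1 was not tested.

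Of 8 dendritic cell genes tested 1, Flt3, which is also on the progenitor list, was called in Bcl11bm/m thymocytes, near the share of 9.92% of all features, while 2 were higher with median-ratio scaling and 3 with quantile normalization. Flt3 passed the filter only through those libraries. In cKO thymocytes none was called. The list's sum was 285 to 1506 FPKM in wild-type, 2056 to 2692 FPKM in Bcl11bm/m and 653 to 939 FPKM in cKO libraries, most of it from Ly6d. None of the 3 erythroid and megakaryocyte genes tested was called against wild-type, and 1 was lower in cKO thymocytes with median-ratio scaling and with quantile normalization. With no filter 12 were tested and 1 was higher in Bcl11bm/m thymocytes, Klf1, an erythroid factor listed at 0 in all wild-type libraries and at 0.177 to 0.549 FPKM in Bcl11bm/m libraries. Pf4, of megakaryocytes, was at 0.951, 0.63 and 0 FPKM in HM1 to HM3 and at 0 elsewhere. Bcl11bm/m exceeded cKO thymocytes in 2 globin genes, Hbb-b2 by 2.26 and Hba-a1 by 2.45 (limma, adjusted p = 0.0263 and 0.0162). These 2 of the 3 tested stand beside 7.63% of all features, and with no filter 2 of 12 were higher, beside 5.42%. The sum of the erythroid and megakaryocyte list was 3.17 to 35.1 FPKM in wild-type, 11.3 to 31.7 FPKM in Bcl11bm/m and 1.38 to 5.47 FPKM in cKO libraries. The part of erythroid cells in the levels of Gfi1b and Tal1 was not tested. Endothelial cells express Erg, Tal1, Lyl1 and Lmo2 too, and their genes Vwf and Emcn were listed at 0 in all libraries, with Cdh5 and Kdr at 0.139 FPKM or less. The part of endothelial cells in the levels of those genes was not tested. Of the 2 endothelial and stromal genes tested, Pecam1, which thymocytes also express, rose in both mutants, by 1.48 (limma, adjusted p = 0.00106) and 0.96 (adjusted p = 0.0134). The other, Epcam, was lower in both, with differences of -1.61 and -1.18 (limma, adjusted p = 0.00092 and 0.00814, and 0.00346 and 0.0194 with no filter).

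For Lyl1 and Kit the features with the most similar levels over the 12 libraries were sought among the 10780 tested, by Pearson's r on the log2(FPKM + 1) scale. For Lyl1 these were Cpeb1 (r = 0.975), Il9r (r = 0.963) and Cd160 (r = 0.96). Cd160 was at 0.111 to 0.433 FPKM in wild-type, 12.8 to 24.8 FPKM in Bcl11bm/m and 6.38 to 35.9 FPKM in cKO libraries, high in both mutants like Lyl1. For Kit they were Ppap2b (r = 0.985), Sbf2 (r = 0.984) and Fndc1 (r = 0.977). Fndc1 was at 0 to 0.0286 FPKM in wild-type, 11.3 to 20.7 FPKM in Bcl11bm/m and 0.013 to 0.212 FPKM in cKO libraries, high in Bcl11bm/m like Kit. The 12 points share group, library and depth, so these values describe the group pattern and carry no p.

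FPKM is scaled to transcript length, so the levels of the genes can also be ranked within a group. By mean FPKM in wild-type, Lyl1 (0.739) and Spi1 (0.591) came first, followed by Kit (0.399), and these neighbours overlapped in their library values. In Bcl11bm/m thymocytes Lyl1 (11.2) stood above Kit (3.01) with no overlap, and Spi1 (1.57) followed, below Kit in each library. In cKO thymocytes Lyl1 (14) stood above all others, and Kit (0.516) and Hhex (0.27) followed with overlapping values.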

How the data were processed

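RNA-seq of pre-selection CD4+CD8+ thymocytes was read from a table in which the authors gave FPKM per feature and library. Per the labels, TopHat2 2.8.0 and Cufflinks 2.1.1 were run on mm9. The deposited FPKM values carry no stated scaling between libraries. The labels' protocol describes another sorted population and a low-input kit, whereas the study's methods describe strand-specific libraries.

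Values were taken as log2(FPKM + 1). Groups were tested with limma 3.58.1 (lmFit, then eBayes with its trend option) in R 4.3.3, run on the libraries of each pair of groups. It took the 10780 of 23234 features that averaged 1 FPKM or more across all 12 libraries. All p-values are two-sided, and those of limma were adjusted by Benjamini and Hochberg's method and called under 0.05. Each of the 10 genes was also tested by exact two-sided permutation in each comparison, 30 tests in all, whose p-values are unadjusted. The limma fit without a filter, over 17153 features, gave adjusted p-values for genes under it. The test was checked on simulated data.

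Depth was estimated from the step between low FPKM values of genes with a single transcript, assuming fragments of 200 bases. Between 61.1 and 66.6% of these values lay within 0.1 of a whole number of fragments, against 20% if spread evenly. A listed 0 was taken to allow 3 fragments, which covers counting error only. Positions are from GENCODE vM1 on NCBIM37 and promoters from RefSeq.

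The genes and lists were chosen with earlier results of these data known. Of each list, up to 4 called genes per comparison by the size of the difference were to be named, with the defining markers of other cell types. Alternatives were other pseudocounts, filters, scalings, fits, thresholds and each library left out. Python 3.11.15, pandas 2.3.3, numpy 2.4.6 and matplotlib 3.10.9 were used. Some results for single genes are left out here.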

Additional observations from a re-analysis of the deposited data

Results flagged for a closer look

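Of 18 sets of values (a gene within the wild-type or the cKO libraries), 4 held 1 library far from the others by Dixon's criterion, which chance gives in about 1 of 20. In each, 1 library had a low value and the others were listed at 0, where any value above 0 meets the criterion. The rate by chance therefore does not apply to these sets, and nothing is read from their number. They were Gfi1b in cKO replicate 4 (0.0484 FPKM), Erg in wild-type replicate 2 (0.0804 FPKM), Tal1 in wild-type replicate 1 (0.0363 FPKM) and Tal1 in cKO replicate 1 (0.0055 FPKM).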

How the results depend on the processing

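The rise of Lyl1 in Bcl11bm/m thymocytes kept its direction in all 16 alternatives (2.41 to 3.8, adjusted p up to 0.0559) and its call in 15. The rise in cKO thymocytes kept both in all 17 (2.51 to 3.93), and the rise of Kit in Bcl11bm/m thymocytes in all 15 (1.24 to 2.67). Replicate numbers did not pair the libraries (correlations of -0.21 to 0.15). With the replicate block the Lyl1 rise in Bcl11bm/m thymocytes was 2.79 (adjusted p = 0.0559) and the Kit difference between mutants 1.43 (adjusted p = 0.0701), and the counts of features called fell from 1866, 1564 and 1102 to 283, 456 and 30 (Bcl11bm/m and cKO against wild-type, and between mutants). With library quality weights the counts were 3604, 3176 and 2173, with features averaging 5 FPKM or more 1189 and 656 in the first and last, and with 1 library left out 1021 to 2349, 700 to 2678 and 313 to 1121.

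The share of called features that were higher was 32% in cKO against wild-type and 48% with median-ratio scaling, and 74.6% and 56.7% between the mutants. For quantile normalization the shares were 41.4% and 53.4%.

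Directions that turned belong to differences without a call. Between the mutants, Lyl1 was at 0.25 with the replicate block and at -0.46 to 0.25 with 1 library left out. In cKO against wild-type, quantile normalization gave -0.23 for Kit, -0.015 for Mef2c and -0.0036 for Erg, and for Tal1 between mutants 0.0007. With 1 library left out, Hhex in Bcl11bm/m lay at -0.084 to 0.0199, and in cKO Mef2c at -0.007 to 0.049, Erg at -0.0011 to 0.039 and Tal1 at -0.011 to 0.002. Tal1 in cKO thymocytes had an exact permutation p of 0.0159 with quantile normalization (-0.0087). Bcl11a in Bcl11bm/m thymocytes lay at 0.17 to 0.36 with 1 library left out, where the smallest possible p exceeds 0.05. The differences between the mutants then lay at 0.022 to 0.203 for Bcl11a, 0.174 to 0.492 for Lmo2 and 0.0526 to 0.273 for Mef2c. The cause was not tested.

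The size of the differences of low genes depended on the pseudocount. At 0.1 instead of 1, those of Bcl11bm/m from wild-type were 1.11 for Spi1, 1.57 for Lmo2 and 1.53 for Bcl11a. Over all alternatives the differences of cKO from wild-type reached 1.05 for Bcl11a, 1.21 for Hhex and -1.15 for Spi1. At 1 FPKM instead of 0.5, 2 wild-type and 4 cKO values lay above the level, and at 0.25 FPKM 12 cKO values did. Depth limits low values most in the wild-type and Bcl11bm/m libraries, where 3 fragments of Spi1 are 0.234 to 0.599 FPKM, against 0.0354 to 0.149 FPKM in cKO libraries.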
